A study of Mus musculus with 10 samples.

Results

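RNA levels of 33 genes of the extracellular matrix and of mesenchymal cells were followed in mouse V6.5 embryonic stem cells (ESCs) and in neural progenitor cells made from them (NPCs, as the labels call them) after siRNA knockdown. The genes were chosen by symbol for their known roles, with earlier results of these data known. They comprise 5 fibrillar collagen genes, 3 basement membrane collagen genes, 2 genes of microfibrillar collagen VI, 6 laminin and nidogen genes, 6 genes of glycoproteins and matricellular proteins, 4 genes of crosslinking enzymes and a collagen chaperone, 5 genes of metalloproteinases and their inhibitors, and 2 mesenchymal cytoskeleton genes. All 33 were found among the 24520 genes of the deposited table, and all 33 were among the 11956 genes tested, which had 1 RPKM or more in 2 or more libraries (RPKM is a read count scaled to transcript length and library size). Of the 33, 28 reached 1 RPKM in 9 or 10 libraries. The other 5 passed only through the groups where they were high: Lama1 and Col6a1 through ESC libraries, Col3a1 through 3 ESC libraries, Thbs2 through ESC replicate 2 of both siRNA groups, and Col6a2 through 1 ESC library and both NPC libraries with Cbx3 siRNA.

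The groups were NPCs with a siRNA against Cbx3, NPCs with a siRNA against Med26, NPCs with a control siRNA against luciferase, ESCs with Cbx3 siRNA and ESCs with control siRNA, with 2 libraries each that the labels call biological replicates. V6.5 is an established mouse ESC line, and the labels name no genetic change in it. ESCs were kept on irradiated mouse embryonic fibroblasts with leukemia inhibitory factor in serum, so an ESC library can hold feeder RNA. For the NPC groups, embryoid bodies were grown for 4 days and then replated as a monolayer in ITSF medium, with siRNA transfected on day 5 and RNA harvested on day 8. Cbx3 encodes the heterochromatin protein HP1 gamma, and Med26 encodes a subunit of the Mediator complex. A p-value from 2 libraries per group measures no more than the spread among these libraries.

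The extracellular matrix is the meshwork of secreted proteins around cells. Fibrillar collagens form cables in connective tissue, while type IV collagen, laminins and nidogens form the basement membrane, the thin sheet under epithelia and around the early embryo. Lysyl oxidases crosslink collagen, metalloproteinases cut matrix proteins, and TIMPs inhibit metalloproteinases. In the embryo, neuroepithelium rests on a basement membrane, and fibrillar collagens, vimentin and caldesmon are typical of mesenchymal cells, though vimentin is also made by neural progenitors.

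The targeted genes were low in the libraries with their siRNA. Cbx3 had 0.425 and 0.248 RPKM in NPCs with Cbx3 siRNA, against 9.37 and 9.65 RPKM in NPC control. Med26 had 3.04 and 3.07 RPKM in NPCs with Med26 siRNA, against 7.56 and 6.78 RPKM in NPC control. Steps in the low values gave a rough estimate of 23300000 to 63700000 reads per library. Only 64.1% to 69.9% of these values lay within 0.1 of a whole step. The NPC label was met in part. Nes, an intermediate filament gene of neural progenitors, had 33.4 to 34.9 RPKM in NPC control. Fabp7 and Hes5 had at most 0.342 RPKM there, and the pluripotency gene Pou5f1 had 484 and 497 RPKM. Against ESC control, 3 of 5 neural progenitor markers tested were higher and 0 lower in limma, beside 10.1% of all genes higher. Of 7 pluripotency markers, 4 were lower (Esrrb, Klf4, Zfp42 and Sox2) and 0 higher, beside 5.94% of all genes lower. Pou5f1, Nanog and Tbx3 did not pass. The ESC replicates stood apart. They correlated at r = 0.949 in both siRNA groups over the genes tested, a description in which replicates share a culture protocol, against 0.995 to 0.996 in the NPC groups. The members' median distance between replicates on the log2(RPKM + 1) scale was 0.55 in both ESC groups and 0.103, 0.097 and 0.126 in NPCs with Cbx3 siRNA, NPCs with Med26 siRNA and NPC control.

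RefSeq windows from 250 bases before to 50 bases after the gene start were held for 22 members, with 26 windows among 32851. The 4 windows printed here belong to the pair of type IV collagen genes, which lie head to head, and to Col5a1 and Spp1, whose RNA kept its change after Cbx3 siRNA in NPCs in every fit that left out a library. Coordinates are of GRCm38.p6, and each sequence is given on the strand of its gene. In the windows of Col4a1 (chr8:11312777-11313076, minus strand) and Col4a2 (chr8:11312555-11312854, plus strand), capitals mark the 78 bases that the windows share, read on opposite strands. In the windows of Col5a1 (chr2:27886175-27886474, plus strand) and Spp1 (chr5:104434861-104435160, plus strand), capitals mark matches on either strand to any of 4 motifs. These were the core promoter motif TATAAA, the Sp1 motif GGGCGG, the NF-Y motif CCAAT and the AP-1 motif TGANTCA.
Col4a1: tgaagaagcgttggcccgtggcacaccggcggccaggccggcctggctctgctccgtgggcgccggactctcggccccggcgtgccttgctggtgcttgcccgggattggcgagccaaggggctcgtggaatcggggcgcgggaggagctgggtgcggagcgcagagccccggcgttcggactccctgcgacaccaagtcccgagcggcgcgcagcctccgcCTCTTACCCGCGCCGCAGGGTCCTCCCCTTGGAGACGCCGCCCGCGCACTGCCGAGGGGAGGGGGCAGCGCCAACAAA
Col4a2: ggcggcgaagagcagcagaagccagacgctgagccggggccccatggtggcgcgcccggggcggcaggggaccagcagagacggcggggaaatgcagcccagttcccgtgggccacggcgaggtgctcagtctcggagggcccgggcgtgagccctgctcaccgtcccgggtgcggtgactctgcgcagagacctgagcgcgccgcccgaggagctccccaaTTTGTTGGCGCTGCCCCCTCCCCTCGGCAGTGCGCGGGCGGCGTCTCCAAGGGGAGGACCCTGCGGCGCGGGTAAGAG
Col5a1: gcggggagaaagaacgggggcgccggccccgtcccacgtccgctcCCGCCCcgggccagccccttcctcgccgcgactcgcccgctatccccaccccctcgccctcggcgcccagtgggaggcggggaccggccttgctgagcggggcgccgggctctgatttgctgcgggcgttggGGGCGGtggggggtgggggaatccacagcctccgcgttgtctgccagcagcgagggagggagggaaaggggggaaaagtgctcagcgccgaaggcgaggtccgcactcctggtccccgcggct
Spp1: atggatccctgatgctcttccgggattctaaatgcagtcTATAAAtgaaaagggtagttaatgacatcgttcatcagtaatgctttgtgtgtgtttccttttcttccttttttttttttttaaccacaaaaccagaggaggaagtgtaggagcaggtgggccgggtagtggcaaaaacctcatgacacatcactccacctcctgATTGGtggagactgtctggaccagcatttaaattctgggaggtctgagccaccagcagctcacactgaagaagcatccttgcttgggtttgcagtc

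The Col5a1 window holds GGGCGG on each strand, and the Spp1 window holds TATAAA and, on the reverse strand, CCAAT. GC content was 74.0% and 73.7% in the windows of Col4a1 and Col4a2, 75.0% in that of Col5a1 and 45.3% in that of Spp1, against a median of 60.0% over the members' windows and 52.7% over all windows. GGGCGG occurred in 65.4% of the members' windows and 35.7% of all windows. CCAAT occurred in 13 of the 26 members' windows and 37.4% of all windows. TATAAA occurred in 19.2% and 13.6%, and TGANTCA in 7.7% and 7.8%. None of the 4 motifs contains another, and a match is a description of the sequence and not of a binding site. Spp1 has a further window that is not printed.

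**Figure D1:**
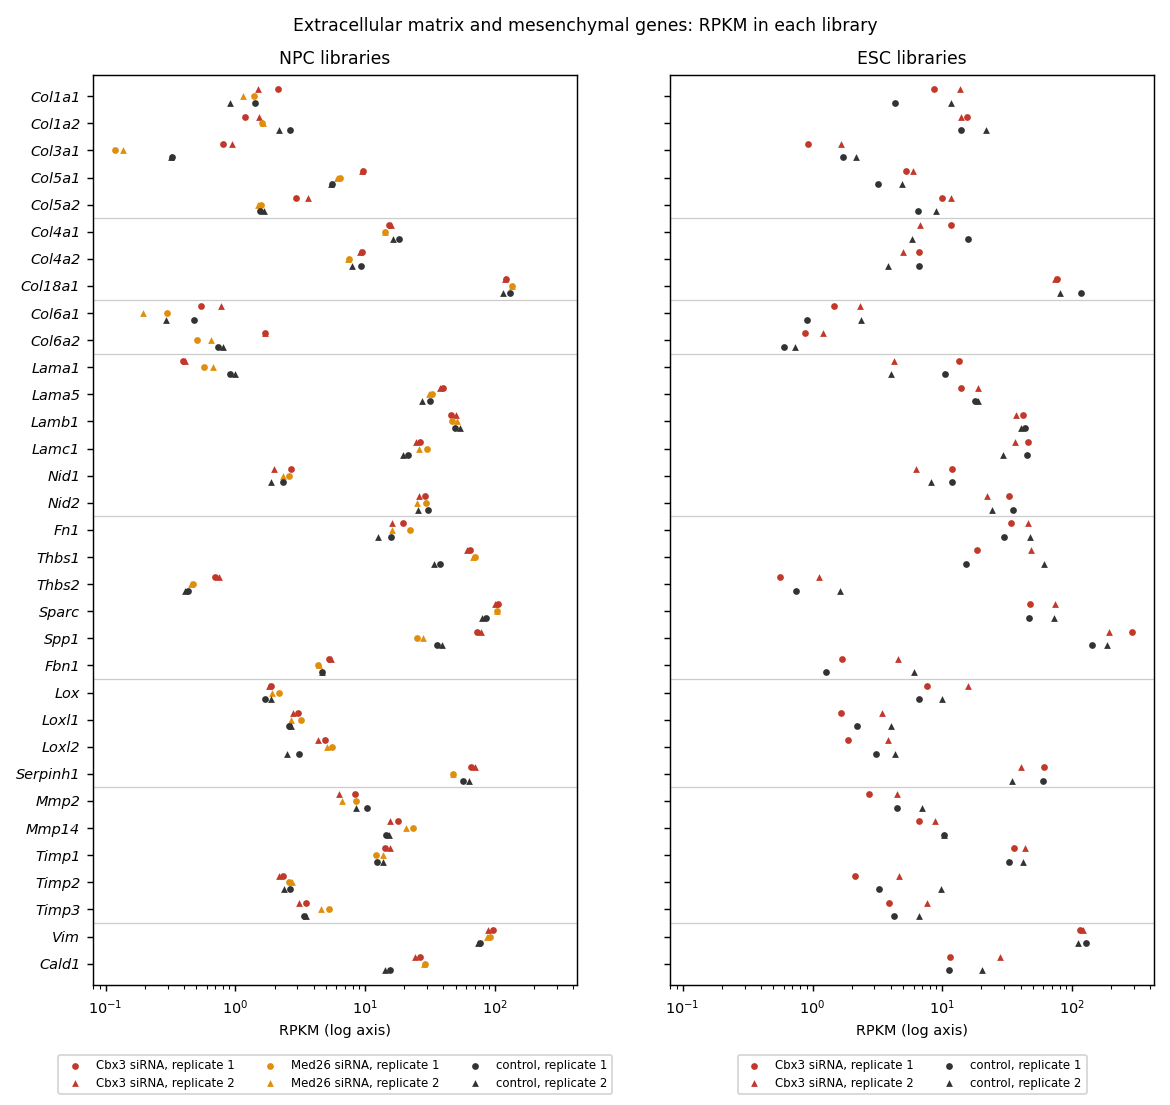
RPKM of each of the 33 genes in every NPC library (left) and ESC library (right) on a log axis, 1 point per library, with colour for the siRNA and shape for the replicate. NPC replicates lie close together, whereas ESC replicates of Thbs1, Fbn1, Col4a1 and Lama1 lie far apart in both siRNA groups.

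RPKM is scaled to transcript length, so levels can be set beside each other between genes. In NPC control the highest members were Col18a1 (123 ± 10.3 RPKM), the source of endostatin in basement membranes, Sparc (81.6 ± 4.0), which encodes a collagen-binding matricellular protein, and Vim (75.2 ± 1.5), which encodes the intermediate filament vimentin (mean ± SD, n = 2). The replicates of these 3 genes did not overlap. In ESC control the highest were Spp1 (163 ± 30.0 RPKM), which encodes the secreted phosphoprotein osteopontin, Vim (118 ± 11.8) and Col18a1 (98.4 ± 25.6) (mean ± SD, n = 2), with overlap between the replicates of Vim and Col18a1. Spp1 alone made up 31.0% and 21.1% of the summed RPKM of the 33 genes in ESCs with Cbx3 siRNA and 17.0% and 20.5% in ESC control. In NPC control the 3 basement membrane collagen genes summed to 158 and 140.2 RPKM and the 5 fibrillar collagen genes to 11.5 and 10.5 RPKM. Most of the basement membrane sum was Col18a1, with 131 and 116 RPKM.

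Knockdown of Cbx3 in NPCs went with higher RNA of 12 members and lower RNA of 2. Matricellular genes (Spp1, Thbs1, Sparc, Thbs2), fibrillar and microfibrillar collagen genes (Col5a1, Col5a2, Col3a1, Col6a2), the crosslinking enzyme gene Loxl2, the laminin gene Lama5 and both cytoskeleton genes (Cald1, Vim) rose, while Col1a2 and Lama1 fell. Across all genes tested 13.1% passed at adjusted p under 0.05 in limma, 7.8% higher and 5.33% lower, so the 12 of 33 higher stand beside 7.8% and the 2 of 33 lower beside 5.33%. Col6a2 was among the 12 and had entered the test through both Cbx3 siRNA libraries, where it was high, and an ESC library. The median log2 change was 0.19 over the members and 0.01 over all genes. Libraries of the groups did not overlap for 21 members on the higher side and 5 on the lower, against 30.1% and 26.5% of all genes. In bulk RNA, fewer cells of a type and less RNA per cell cannot be told apart. All log2 changes are differences of log2(RPKM + 1), a scale that makes the change of a low gene look smaller than its RPKM ratio.

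The number of members passing was 5 without NPC control replicate 1 and also without replicate 2, 7 without each Cbx3 siRNA library in turn and 10 without each Med26 siRNA library in turn, which share in the estimate of the spread. Spp1, Thbs1, Cald1 and Col5a1 passed in all 6 of these fits, Col6a2 in 5, Col3a1 and Col5a2 in 4, Loxl2, Sparc and Lama1 in 2, and Lama5 in 1. Col1a2, Thbs2 and Vim passed in 0 of the 6. Where the ESC libraries entered the same fit, 0 members and 1 gene in all passed.

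**Figure D2:**
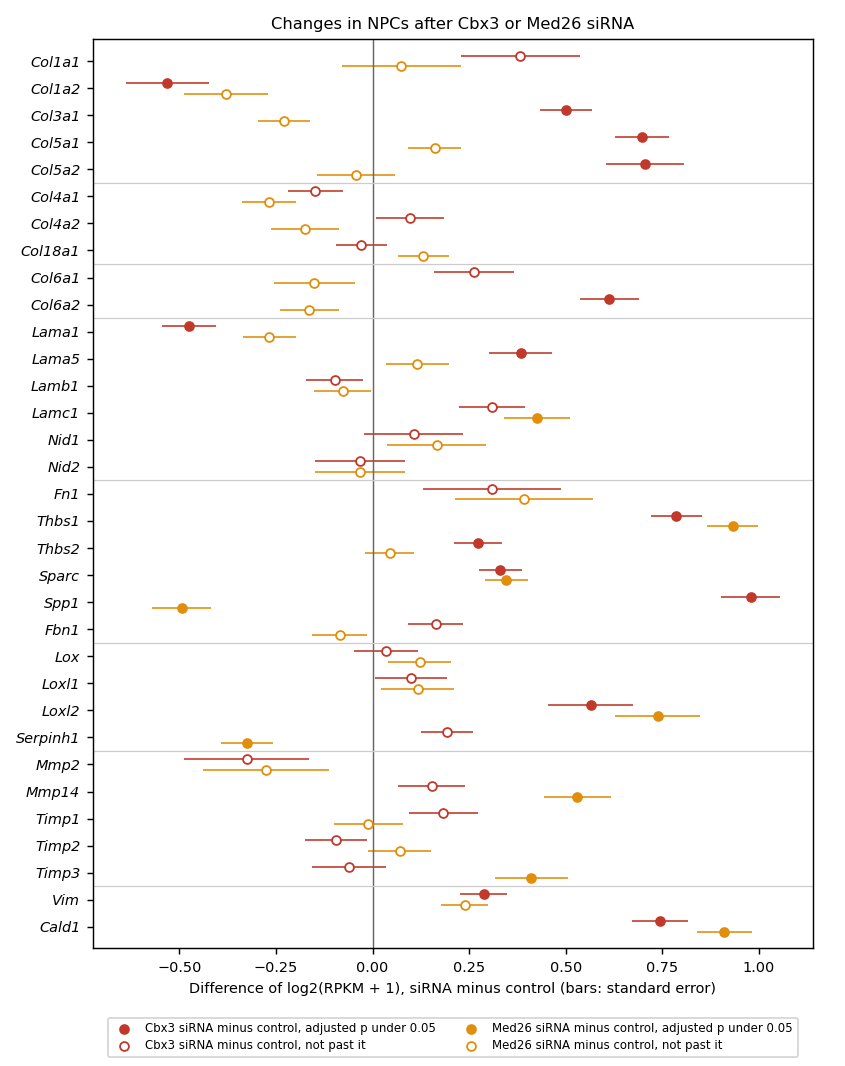
Difference of log2(RPKM + 1) for each of the 33 genes in NPCs, for Cbx3 siRNA minus control and Med26 siRNA minus control, with bars for the standard error and filled points for adjusted p under 0.05 in limma. Thbs1, Cald1 and Loxl2 lie to the right of 0.5 after both siRNAs, while Spp1 lies at 0.98 after Cbx3 siRNA and at -0.49 after Med26 siRNA.

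Among fibrillar collagen genes, 3 of 5 rose after Cbx3 siRNA and 1 fell. Col5a1, whose chain nucleates collagen fibrils, had 9.56 and 9.45 RPKM with Cbx3 siRNA, against 5.54 and 5.42 RPKM in NPC control. Its partner chain gene Col5a2 had 2.91 and 3.63 RPKM with Cbx3 siRNA, against 1.55 and 1.67 RPKM in NPC control. Both Cbx3 siRNA libraries lay above both control libraries for each gene, with log2 changes of 0.70 for Col5a1 (standard error 0.07, adjusted p = 0.00362 in limma) and 0.71 for Col5a2 (standard error 0.10, adjusted p = 0.00966). Col3a1, a collagen gene of elastic tissues, had 0.802 and 0.936 RPKM with Cbx3 siRNA, against 0.324 and 0.317 RPKM in NPC control. It stayed below 1 RPKM in every NPC library, its mean RPKM was 2.71 times that of the control, and it rose by 0.50 on the log2 scale (standard error 0.07, adjusted p = 0.00814 in limma). Col1a2 had 1.19 and 1.52 RPKM with Cbx3 siRNA, against 2.66 and 2.15 RPKM in NPC control, and fell by 0.53 on the log2 scale (standard error 0.11, adjusted p = 0.0264 in limma). Col1a1, whose product joins that of Col1a2 in the same trimer, had 2.14 and 1.497 RPKM against 1.41 and 0.913 RPKM and did not pass (log2 change 0.38, adjusted p = 0.155). The difference between the changes of Col1a1 and Col1a2 was not tested.

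Collagen VI forms beaded filaments near basement membranes. Col6a2 had 1.70 and 1.70 RPKM with Cbx3 siRNA, against 0.733 and 0.804 RPKM in NPC control, and rose by 0.61 on the log2 scale (standard error 0.08, adjusted p = 0.0064 in limma). It entered the test through these Cbx3 siRNA libraries and 1 ESC library. Its neighbour on chromosome 10, Col6a1, had 0.545 and 0.778 RPKM with Cbx3 siRNA, against 0.477 and 0.293 RPKM in NPC control, and did not pass (log2 change 0.26, adjusted p = 0.152).

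None of the 3 basement membrane collagen genes passed after Cbx3 siRNA in NPCs. Col4a1 and Col4a2 encode the chains of the main type IV collagen trimer and share the start region printed above. Col4a1 had 15.3 and 15.7 RPKM with Cbx3 siRNA, against 18.3 and 16.3 RPKM in NPC control (log2 change -0.15, limma adjusted p = 0.22). Col4a2 had 9.41 and 9.08 RPKM with Cbx3 siRNA, against 9.32 and 7.90 RPKM in NPC control (log2 change 0.10, limma adjusted p = 0.519). The libraries of the groups overlapped for Col4a2 and for Col18a1, which had 121 and 119.7 RPKM with Cbx3 siRNA against 131 and 116 RPKM in the control. Because these genes overlap at their starts and no source used here gives the use of strand, Col4a1 and Col4a2 can share a few reads.

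Of the laminin and nidogen genes, Lama5 rose and Lama1 fell, and the other 4 did not pass. Lama5, the alpha chain gene of the laminin most widely made in epithelial basement membranes, had 39.5 and 37.5 RPKM with Cbx3 siRNA, against 31.5 and 27.2 RPKM in NPC control (log2 change 0.38, standard error 0.08, adjusted p = 0.0311 in limma). Lama1, the alpha chain gene of the earliest embryonic laminin, had 0.396 and 0.412 RPKM with Cbx3 siRNA, against 0.910 and 0.991 RPKM in NPC control, a level close to the limit of 1 RPKM. It fell by 0.47 on the log2 scale (standard error 0.07, adjusted p = 0.0102 in limma). The chain partners Lamb1 and Lamc1 and the linker genes Nid1 and Nid2 had log2 changes from -0.10 to 0.31, of which that of Lamc1 (0.31, adjusted p = 0.0648) was nearest to passing. Reads of Nid2 may include some of Rtraf, a neighbour whose annotation overlaps it and which had 40.9 to 76.3 RPKM.

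Of the glycoprotein and matricellular genes, 4 of 6 rose. Spp1 had 72.1 and 77.7 RPKM with Cbx3 siRNA, against 35.9 and 39.2 RPKM in NPC control. Thbs1, which encodes thrombospondin 1, an activator of latent TGF-beta, had 63.7 and 60.9 RPKM with Cbx3 siRNA, against 37.5 and 33.9 RPKM in NPC control. For both genes the groups lay far apart relative to their replicates, with log2 changes of 0.98 for Spp1 (standard error 0.08, adjusted p = 0.00168 in limma) and 0.79 for Thbs1 (standard error 0.07, adjusted p = 0.00212). Sparc rose by 0.33, to 105 and 100.5 RPKM against 84.5 and 78.8 RPKM in NPC control (adjusted p = 0.0159). Thbs2, a relative of Thbs1, had 0.691 and 0.742 RPKM with Cbx3 siRNA, against 0.433 and 0.408 RPKM in NPC control (log2 change 0.27, limma adjusted p = 0.0392). Fn1, the fibronectin gene, and Fbn1, which encodes the microfibril protein fibrillin 1, did not pass (log2 changes 0.31 and 0.16), although the libraries of the groups did not overlap for either.

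Of the crosslinking enzyme genes, Loxl2 passed. This lysyl oxidase gene had 4.91 and 4.30 RPKM with Cbx3 siRNA, against 3.11 and 2.49 RPKM in NPC control (log2 change 0.56, standard error 0.11, adjusted p = 0.0238 in limma). Lox, Loxl1 and Serpinh1, which encodes the collagen chaperone HSP47, had log2 changes from 0.04 to 0.19 and did not pass. The genes of the metalloproteinases MMP2 and MMP14 and of 3 TIMPs had changes from -0.33 to 0.18 and did not pass either. Among cytoskeleton genes, Cald1, which encodes the actin-binding protein caldesmon, had 26.6 and 24.2 RPKM with Cbx3 siRNA, against 15.4 and 14.1 RPKM in NPC control (log2 change 0.74, standard error 0.07, adjusted p = 0.00316). Vim had 96.1 and 88.1 RPKM with Cbx3 siRNA, against 76.3 and 74.1 RPKM in NPC control (log2 change 0.29, limma adjusted p = 0.0304).

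Other matrix genes, taken from lists written from general knowledge, gave these counts after Cbx3 siRNA in NPCs, where 7.8% of all genes were higher and 5.33% lower. Proteases and inhibitors had 4 higher and 1 lower of 14 tested, among them the gelatinase gene Mmp9 (log2 change 1.09, adjusted p = 0.00144 in limma) and the urokinase gene Plau (0.86). Other laminin and basement membrane genes had 4 higher and 2 lower of 11, among them Tinagl1 (1.54) and Lamb3 (0.61). Integrin receptors and adhesion partners had 3 higher and 2 lower of 17, with Itga3 at 0.84, Itga5, which encodes a chain of the fibronectin receptor, at 0.76, and Itgb8 at -0.45. Actin and filament partners had 4 higher of 14, led by Acta2 (1.18) and Lmna (0.88). Collagen-modifying enzymes had 4 higher and 1 lower of 15, led by Loxl4 (0.85). Elastic fibre genes had 1 higher (Efemp1, 1.22) and 1 lower (Ltbp1, -0.44) of 11, matricellular genes 1 higher (Ccn2, 0.45) of 9, other collagens 1 higher (Col2a1, 0.49) of 4 and proteoglycans 1 lower (Vcan, -0.52) of 10.

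Markers of other cell types moved beside these genes. Summed RPKM of the simple epithelium markers was 807 and 836 with Cbx3 siRNA, against 514 and 529 in NPC control, and 4 of 6 rose. Smooth muscle markers summed to 1030.4 and 1072 RPKM, against 877 and 909.7 RPKM, and 2 of 6 tested rose. Feeder and fibroblast markers summed to 7.62 and 6.94 RPKM, against 5.16 and 4.64 RPKM, and S100a4 rose, alone among 7 tested, while Fap and Dpt were at 0 in both groups. None of 6 endoderm markers, 2 endothelial markers or 3 neural crest and mesenchyme factors rose, though Foxd3 of the last list fell. Neural progenitor markers had 3 lower of 5 and pluripotency markers 3 lower of 7. These counts stand beside 7.8% of all genes higher and 5.33% lower. The part of these cell types in the changes of the members was not tested.

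Knockdown of Med26 in NPCs went with higher RNA of 7 members (Thbs1, Cald1, Loxl2, Mmp14, Lamc1, Timp3 and Sparc) and lower RNA of 2 (Spp1 and Serpinh1). Among all genes 13.4% passed, 6.9% higher and 6.46% lower, beside 7 of 33 and 2 of 33 for the members. The median log2 change was 0.07 over the members and -0.0014 over all genes. Groups did not overlap for 15 members on the higher side and 9 on the lower, against 29.1% and 29.8% of all genes. This comparison and that of Cbx3 siRNA use the same NPC control libraries. The number of members passing was 3 and 2 without NPC control replicates 1 and 2, 2 and 3 without Med26 siRNA replicates 1 and 2, and 8 without each Cbx3 siRNA library in turn. Thbs1 and Cald1 passed in all 6 of these fits, Loxl2 and Spp1 in 3, Sparc, Lamc1, Mmp14 and Serpinh1 in 2 and Timp3 in 0. Where the ESC libraries entered the same fit, 0 members passed, against 15 genes in all.

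Thbs1 had 70.5 and 67.5 RPKM with Med26 siRNA, against 37.5 and 33.9 RPKM in NPC control (log2 change 0.93, standard error 0.07, adjusted p = 0.00183 in limma). Cald1 had 28.7 and 28.5 RPKM with Med26 siRNA, against 15.4 and 14.1 RPKM in NPC control (log2 change 0.91, standard error 0.07, adjusted p = 0.00224). Loxl2 had 5.53 and 5.10 RPKM with Med26 siRNA, against 3.11 and 2.49 RPKM in NPC control (log2 change 0.74, standard error 0.11, adjusted p = 0.0128). In these 3 genes both Med26 siRNA libraries lay above both control libraries by more than the replicates differed. Sparc had 104 and 104 RPKM with Med26 siRNA, against 84.5 and 78.8 RPKM in NPC control (log2 change 0.35, limma adjusted p = 0.016). Spp1 went the other way, with 25.1 and 27.7 RPKM with Med26 siRNA, against 35.9 and 39.2 RPKM in NPC control. It fell by 0.49 on the log2 scale (standard error 0.08, adjusted p = 0.0136 in limma).

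Of the 5 genes of metalloproteinases and inhibitors, 2 passed after Med26 siRNA, both higher. Mmp14, which encodes a membrane-anchored collagenase, had 23.1 and 20.7 RPKM with Med26 siRNA, against 14.5 and 15.3 RPKM in NPC control (log2 change 0.53, standard error 0.09, adjusted p = 0.0165 in limma). Timp3, whose product binds the matrix and inhibits metalloproteinases, had 5.28 and 4.57 RPKM with Med26 siRNA, against 3.38 and 3.52 RPKM in NPC control (log2 change 0.41, standard error 0.09, adjusted p = 0.0393). The libraries of the groups did not overlap for either gene. Mmp2, Timp1 and Timp2 had log2 changes from -0.28 to 0.07 and did not pass. Lamc1, the gamma chain gene of most laminins, had 29.6 and 26.1 RPKM with Med26 siRNA, against 21.5 and 19.5 RPKM in NPC control (log2 change 0.43, standard error 0.09, adjusted p = 0.027). Serpinh1 had 47.1 and 47.2 RPKM with Med26 siRNA, against 56.3 and 62.6 RPKM in NPC control, and fell by 0.33 (adjusted p = 0.0296).

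None of the 10 collagen genes passed after Med26 siRNA, with changes of log2(RPKM + 1) from -0.38 (Col1a2, adjusted p = 0.0666) to 0.16 (Col5a1, adjusted p = 0.173). By mean RPKM, Col3a1 had the lowest ratio to control among the members, 0.395. It had 0.118 and 0.135 RPKM with Med26 siRNA, against 0.324 and 0.317 RPKM in NPC control, a low level at which this log2 scale shrinks changes. Col4a1 had 14.1 and 14.3 RPKM with Med26 siRNA, against 18.3 and 16.3 RPKM in NPC control, and just missed the threshold (log2 change -0.27, adjusted p = 0.0557 in limma). Col4a2 had 7.54 and 7.43 RPKM with Med26 siRNA, against 9.32 and 7.90 RPKM in NPC control (log2 change -0.18, limma adjusted p = 0.228). For both type IV genes the Med26 siRNA libraries were the lower ones. Vim had 91.1 and 86.8 RPKM with Med26 siRNA, against 76.3 and 74.1 RPKM in NPC control (log2 change 0.24, limma adjusted p = 0.0517). The remaining members, among them Lama1 (log2 change -0.27, adjusted p = 0.0538), Lama5, Lamb1, Nid1, Nid2, Fn1, Thbs2, Fbn1, Lox and Loxl1, had changes from -0.27 to 0.39 and did not pass.

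Other matrix genes after Med26 siRNA gave 7 higher and 1 lower of 14 proteases and inhibitors, among them Mmp11 (log2 change 0.53, adjusted p = 0.016 in limma) and Adamts9 (0.50). Of 14 actin and filament partners 8 were higher, led by Lmna (0.83), which encodes lamin A, Tagln (0.73) and Tpm1 (0.45). Integrin receptors and adhesion partners had 7 higher of 17, led by Tln1 (0.68), which encodes the integrin activator talin, the collagen receptor gene Ddr1 (0.61) and Itga8 (0.59). Collagen-modifying enzymes had 3 higher of 15, led by P4ha1 (0.61), which encodes a prolyl hydroxylase chain. Other basement membrane genes had 2 higher, among them Tinagl1 (1.001), and 1 lower, Smoc1 (-0.36), of 11. Elastic fibre genes had Efemp2 (0.39) higher and Fbln2 (-0.41) lower among 11, matricellular genes had Ccn1 (0.43) higher and Tnc (-0.27) lower among 9, Col2a1 (0.87) was higher among 4 other collagens, and 0 of 10 proteoglycans passed. Simple epithelium markers summed to 715 and 739 RPKM with Med26 siRNA, against 514 and 529 RPKM in NPC control, with 5 of 6 higher. Smooth muscle markers summed to 1180.2 and 1287 RPKM, against 877 and 909.7 RPKM, with 4 of 6 higher. Feeder and fibroblast markers summed to 4.58 and 4.66 RPKM, against 5.16 and 4.64 RPKM, with 0 higher and 1 lower of 7 and with Fap and Dpt at 0 in both groups. Pluripotency markers had 3 higher and 1 lower of 7, and 0 of 5 neural progenitor markers passed. Among 6 endoderm and 2 endothelial markers 0 passed, and Foxd3 was lower among 3 neural crest and mesenchyme factors. All counts of this paragraph stand beside 6.9% of all genes higher and 6.46% lower. The part of these cell types was not tested.

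Cbx3 siRNA and Med26 siRNA were then set against each other directly. Of the 10 collagen genes, 5 were higher with Cbx3 siRNA than with Med26 siRNA, namely 3 of 5 fibrillar genes (Col5a1, Col5a2 and Col3a1), both collagen VI genes (Col6a1 and Col6a2) and 0 of 3 basement membrane genes. Col6a2 had entered the test through the Cbx3 siRNA libraries, where it was high, and 1 ESC library. Spp1 and Serpinh1 were also higher, while Timp3 and Mmp14 were lower. That is 7 higher and 2 lower of 33 members, where 18.3% of all genes passed, 10.4% higher and 7.87% lower. The median log2 difference was -0.02 over the members and 0.01 over all genes. Groups did not overlap for 14 members on the higher side and 10 on the lower, against 32.9% and 28.8% of all genes. The number of members passing was 6 or 7 without any 1 of the 6 libraries, with Spp1, Serpinh1, Col5a1, Col5a2, Col3a1 and Col6a2 passing in all 6 fits, Timp3 in 3, Mmp14 in 1 and Col6a1 in 0. Where the ESC libraries entered the same fit, Spp1 and Col6a2 passed.

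Spp1 had the largest difference among the members on the log2(RPKM + 1) scale, with 72.1 and 77.7 RPKM with Cbx3 siRNA and 25.1 and 27.7 RPKM with Med26 siRNA (log2 difference 1.47, standard error 0.08, adjusted p = 0.000616 in limma). Col6a2 had 1.70 and 1.70 RPKM with Cbx3 siRNA and 0.509 and 0.652 RPKM with Med26 siRNA (0.78, standard error 0.08, adjusted p = 0.00297). Col3a1 had 0.802 and 0.936 RPKM with Cbx3 siRNA and 0.118 and 0.135 RPKM with Med26 siRNA (0.73, standard error 0.07, adjusted p = 0.00249). In each of these 3 genes the Cbx3 siRNA libraries lay well above the Med26 siRNA libraries. By mean RPKM the order was another, with ratios of 6.86 for Col3a1, 2.935 for Col6a2 and 2.84 for Spp1. Col5a2 had 2.91 and 3.63 RPKM with Cbx3 siRNA and 1.58 and 1.49 RPKM with Med26 siRNA (0.75, standard error 0.10, adjusted p = 0.00671). Col5a1 had 9.56 and 9.45 RPKM with Cbx3 siRNA and 6.43 and 6.06 RPKM with Med26 siRNA (0.54, standard error 0.07, adjusted p = 0.00595). Serpinh1, which helps procollagen fold, had 65.7 and 70.3 RPKM with Cbx3 siRNA and 47.1 and 47.2 RPKM with Med26 siRNA (0.52, standard error 0.07, adjusted p = 0.0063). The Col6a1 libraries did not overlap either, at 0.545 and 0.778 RPKM with Cbx3 siRNA and 0.298 and 0.193 RPKM with Med26 siRNA (0.41, adjusted p = 0.0412).

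Timp3 had 3.47 and 3.08 RPKM with Cbx3 siRNA and 5.28 and 4.57 RPKM with Med26 siRNA (log2 difference -0.47, standard error 0.09, adjusted p = 0.0209 in limma). Mmp14 had 17.7 and 15.6 RPKM with Cbx3 siRNA and 23.1 and 20.7 RPKM with Med26 siRNA (-0.38, standard error 0.09, adjusted p = 0.0314). The genes that rose after each siRNA against the shared control had small differences between the siRNAs that did not pass: -0.15 for Thbs1 (standard error 0.07), -0.17 for Cald1 (standard error 0.07), -0.17 for Loxl2 (standard error 0.11) and -0.02 for Sparc (standard error 0.06). Col4a1 and Col4a2 differed by 0.12 and 0.27 and did not pass (adjusted p = 0.284 and 0.0801). Vim, at 0.05, did not pass, nor did the members not named here, with differences from -0.21 to 0.31. Among the other matrix genes, integrin receptors and adhesion partners had 0 higher and 6 lower of 17, led by Itgb8 (-0.87), Ddr1 (-0.79) and Itga8 (-0.33). Proteases and inhibitors had 3 higher and 4 lower of 14, among them Mmp9 (1.20) and Adamts1 (-0.64). Matricellular genes had Ccn2 (0.75) and Thbs4 (0.46) higher and Spon1 (-0.77) lower among 9. Actin and filament partners had 2 higher and 3 lower of 14, led by Acta2 (0.86), Cnn1 (-0.39) and Tagln (-0.33). Collagen-modifying enzymes had Loxl4 (0.49) higher and 2 lower of 15, with P4ha1 at -0.75. Elastic fibre genes had Efemp1 (1.17) and Fbln2 (0.32) higher and Ltbp1 (-0.44) lower among 11. Other basement membrane genes had Tinagl1 (0.54) and Smoc1 (0.50) higher and 2 lower of 11, Col2a1 (-0.38) was lower among 4 other collagens and Vcan (-0.46) among 10 proteoglycans. Between these groups S100a4 was higher among 7 feeder and fibroblast markers, 3 of 6 simple epithelium markers were higher and 1 lower, 1 of 6 smooth muscle markers was higher and 2 lower, and 5 of 7 pluripotency markers and 3 of 5 neural progenitor markers were lower. The list counts of this paragraph stand beside 10.4% of all genes higher and 7.87% lower. The part of these markers in the members' differences was not tested.

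In ESCs, 0 of the 33 members and 0% of all genes passed after Cbx3 siRNA in limma without a replicate block. At unadjusted p under 0.05 there were 4 members and 645 genes of 11956. The members' median log2 change was -8e-04 and that of all genes -0.03. Groups did not overlap for 4 members on the higher side (Col5a1, Col5a2, Col6a2 and Spp1), where 7.86% of all genes did so, and for 3 on the lower side (Col3a1, Col18a1 and Mmp14), where 13.1% did. The members' median residual SD in the fit of all 10 libraries was 0.28, against 0.16 over all genes. Deviations of same-numbered libraries correlated at 0.892 between the ESC groups. The calls differed between fits with and without a replicate block, and the cause was not tested. With the replicate number as a block, some members and genes passed in the fit of all 10 libraries. In a blocked fit of the ESC libraries alone, genes but no members passed. Those counts are given with the dependence on the processing. Cbx3 itself had 1.01 and 1.96 RPKM in ESCs with Cbx3 siRNA, against 13.99 and 56.4 RPKM in ESC control.

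Spp1 had 291 and 191 RPKM in ESCs with Cbx3 siRNA, against 142 and 184 RPKM in ESC control (log2 change 0.54, standard error 0.21, adjusted p = 0.832 in limma). Col5a2 had 9.96 and 11.6 RPKM with Cbx3 siRNA, against 6.44 and 8.94 RPKM in ESC control (0.45, adjusted p = 0.807). Col5a1 had 5.23 and 5.93 RPKM with Cbx3 siRNA, against 3.17 and 4.90 RPKM in ESC control (0.41, adjusted p = 0.851). The lowest Cbx3 siRNA library lay just above the highest control library in each of these 3 genes. Col6a2 had 0.878 and 1.20 RPKM with Cbx3 siRNA, against 0.602 and 0.736 RPKM in ESC control (0.29, adjusted p = 0.959). On the lower side, Mmp14 had 6.59 and 8.84 RPKM with Cbx3 siRNA, against 10.3 and 10.4 RPKM in ESC control (-0.39, adjusted p = 0.807). Col3a1 had 0.926 and 1.65 RPKM with Cbx3 siRNA, against 1.71 and 2.15 RPKM in ESC control (-0.37, adjusted p = 0.965). Col18a1 had 76.9 and 73.6 RPKM with Cbx3 siRNA, against 116.5 and 80.3 RPKM in ESC control (-0.36, adjusted p = 0.965).

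The response to Cbx3 siRNA in NPCs was tested against that in ESCs by an interaction term, and 0 members and 0 genes passed in limma, with 4 members and 233 genes at unadjusted p under 0.05. The 4 members were Col3a1 (log2 difference of responses 0.87, standard error 0.24), Loxl2 (0.89, standard error 0.35), Lama5 (0.55, standard error 0.20) and Mmp14 (0.54, standard error 0.20), each with adjusted p = 1. Col3a1 and Mmp14 lay above control in both NPC libraries and below it in both ESC libraries with Cbx3 siRNA, although the change of Mmp14 in NPCs (0.15) did not pass. For Col5a1, Col5a2, Col6a2 and Spp1 the difference of responses was 0.25 to 0.44 and did not pass.

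**Figure D3:**
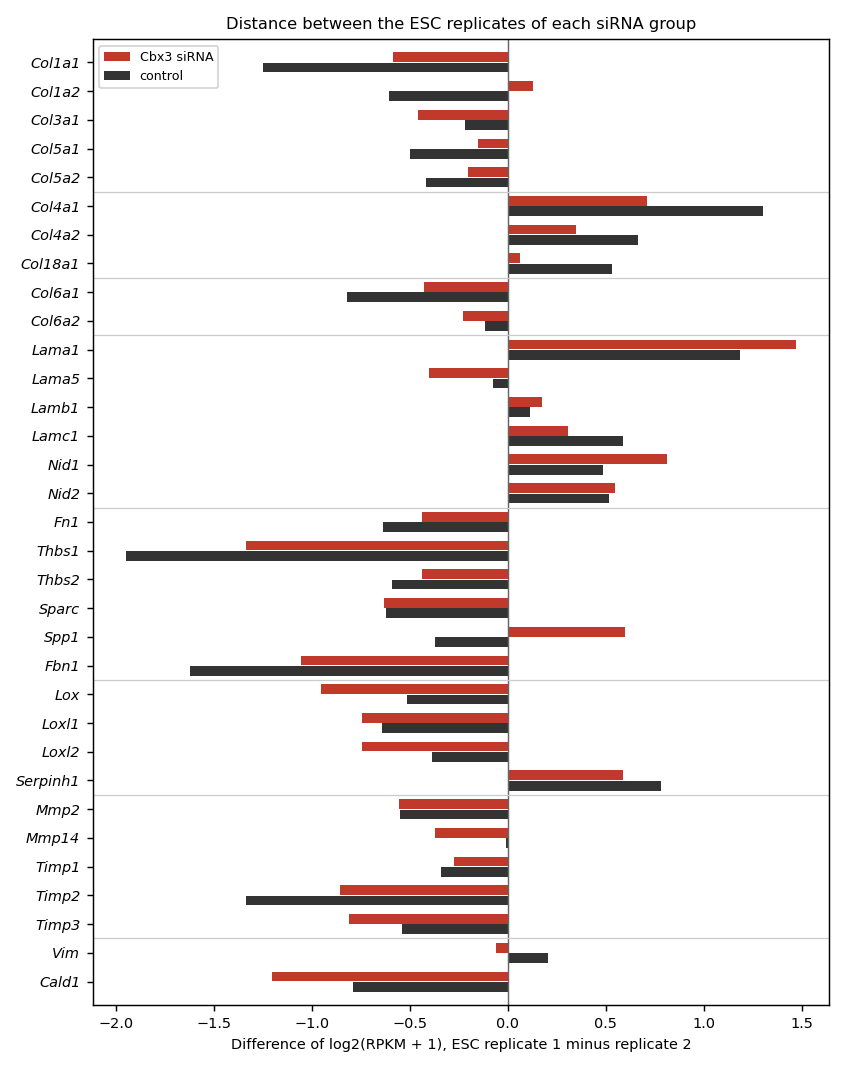
Difference of log2(RPKM + 1) between ESC replicate 1 and ESC replicate 2 for each of the 33 genes, with a bar each for Cbx3 siRNA and control. Basement membrane genes such as Col4a1 and Lama1 point to replicate 1 and genes such as Thbs1, Fbn1 and Timp2 to replicate 2, in both siRNA groups.

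Members of different roles pointed to different ESC replicates. In both siRNA groups, 9 members were higher in replicate 1, namely the 3 basement membrane collagen genes, 5 of the 6 laminin and nidogen genes and Serpinh1. Another 21 were higher in replicate 2 in both groups, including 4 of 5 fibrillar collagen genes, both collagen VI genes, all 3 lysyl oxidase genes and all 5 genes of metalloproteinases and inhibitors. Of these, Mmp14 was nearly level in ESC control, at 10.30 and 10.36 RPKM. Col1a2, Spp1 and Vim differed in direction between the groups. The distance reached 1 log2 unit in at least 1 group for 7 members, 21.2% of 33, where 8.4% of all genes did so. Deviations of same-numbered libraries correlated at 0.892 between the ESC groups over all genes tested, so genes in general tended to keep their direction. The share of all genes that kept it was not counted. No test was made of the members' division, since each replicate is 1 library per group.

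Lama1 had 13.5 RPKM in replicate 1 and 4.22 RPKM in replicate 2 of ESCs with Cbx3 siRNA, and 10.5 RPKM and 4.03 RPKM in those of ESC control. Col4a1 had 11.7 and 6.76 RPKM in replicates 1 and 2 with Cbx3 siRNA and 15.8 and 5.80 RPKM in ESC control, and Col4a2 had 6.61 and 4.98 RPKM with Cbx3 siRNA and 6.65 and 3.83 RPKM in ESC control. In these basement membrane genes replicate 1 was the high one each time. Thbs1 had 18.6 and 48.5 RPKM in replicates 1 and 2 with Cbx3 siRNA and 15.1 and 61.2 RPKM in ESC control. Fbn1 had 1.69 and 4.58 RPKM with Cbx3 siRNA and 1.28 and 6.02 RPKM in ESC control. Here replicate 2 was high, as it was for Timp2 (2.12 and 4.65 RPKM with Cbx3 siRNA, 3.24 and 9.74 RPKM in ESC control), Cald1 (11.5 and 28.0 RPKM with Cbx3 siRNA, 11.3 and 20.4 RPKM in ESC control) and Col1a1 (8.69 and 13.6 RPKM with Cbx3 siRNA, 4.30 and 11.6 RPKM in ESC control).

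Markers of other cell types also differed between the ESC replicates. Endoderm markers summed to 9.24 and 5.19 RPKM in replicates 1 and 2 with Cbx3 siRNA and to 9.36 and 6.12 RPKM in ESC control. Cubn, which encodes an endocytic receptor of visceral endoderm, had 2.02 and 0.103 RPKM with Cbx3 siRNA and 2.03 and 0.0588 RPKM in ESC control, while Ttr was at 0 in all 4 libraries. Pluripotency markers summed to 789.9 and 439 RPKM with Cbx3 siRNA and to 867 and 477 RPKM in ESC control. Simple epithelium markers ran the other way, at 192 and 464 RPKM with Cbx3 siRNA and 217 and 352 RPKM in ESC control, as did smooth muscle markers, at 151 and 405 RPKM with Cbx3 siRNA and 166 and 371 RPKM in ESC control. Feeder and fibroblast markers summed to 43.7 and 51.5 RPKM with Cbx3 siRNA and to 39.2 and 53.7 RPKM in ESC control. The implied depth was 33600000 and 23300000 reads with Cbx3 siRNA and 51300000 and 24000000 reads in ESC control. Their part in the distance between replicates was not tested.

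**Figure D4:**
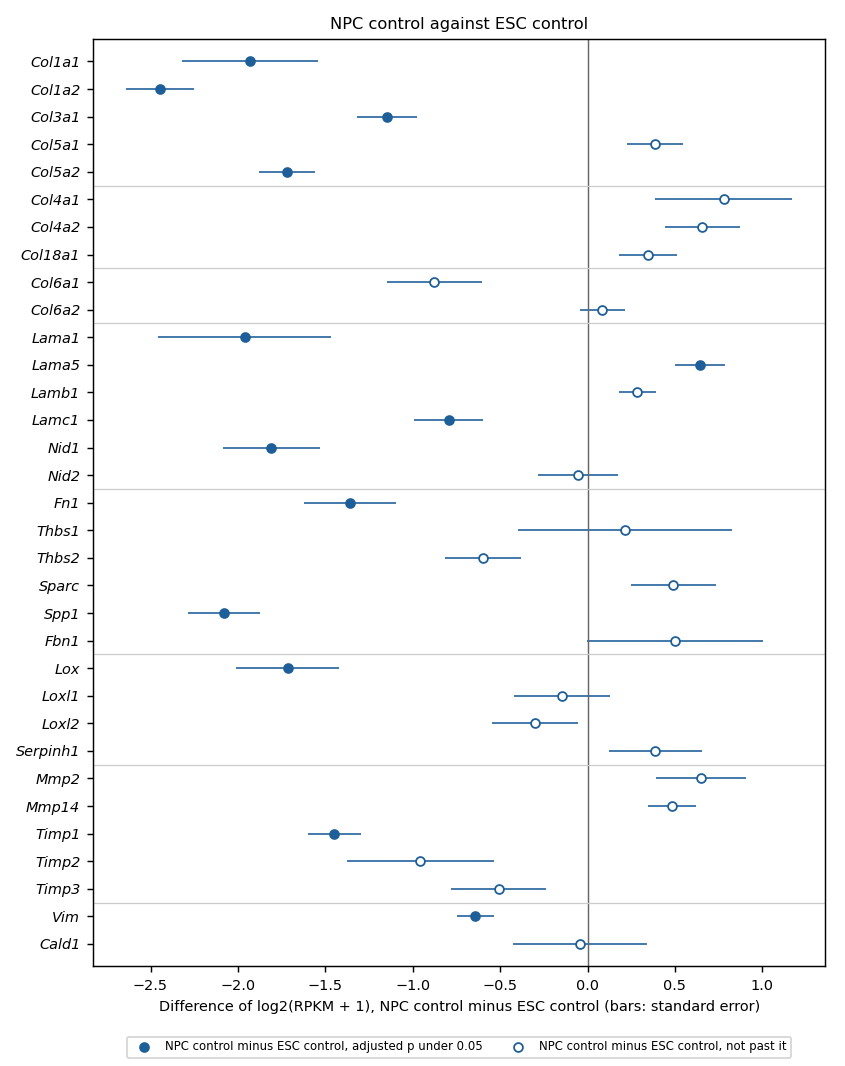
Difference of log2(RPKM + 1) between NPC control and ESC control for each of the 33 genes, with bars for the standard error and filled points for adjusted p under 0.05 in limma. Fibrillar collagen genes other than Col5a1 lie below -1, whereas the 3 basement membrane collagen genes lie above 0 without passing.

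NPC control had lower RNA of 12 members than ESC control and higher RNA of 1, Lama5. Those that fell were 4 of 5 fibrillar collagen genes (Col1a2, Col1a1, Col5a2, Col3a1), the laminin and nidogen genes Lama1, Nid1 and Lamc1, the glycoprotein genes Spp1 and Fn1, the crosslinking enzyme gene Lox, the inhibitor gene Timp1, and Vim. Among all genes 16% passed, 10.1% higher and 5.94% lower, beside 1 of 33 and 12 of 33 for the members. The median log2 difference was -0.30 over the members and 0.03 over all genes. Groups did not overlap for 8 members on the higher side and 16 on the lower, against 34.5% and 24.6% of all genes. The number of members passing was 4 without NPC control replicate 1 and also without replicate 2, 10 without any 1 of the other 4 NPC libraries, and 16 and 15 without ESC control replicates 1 and 2. Col1a2, Col5a2, Spp1 and Timp1 passed in all 10 fits that left out a library, and Lama1, Lama5 and Lamc1 in 3. With only the 4 control libraries in the fit, Col1a2 and Spp1 passed. The fit of 10 libraries pools their spread, although ESC replicates lay farther apart than NPC replicates, so it understates the spread of the ESC groups. Lama1 and Col3a1 were among the 12 and reached 1 RPKM only in ESC libraries.

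Both type I collagen genes were lower in NPC control. Col1a2 had 2.66 and 2.15 RPKM in NPC control, against 13.97 and 21.8 RPKM in ESC control (log2 difference -2.44, standard error 0.20, adjusted p = 0.00112 in limma). Col1a1 had 1.41 and 0.913 RPKM in NPC control, against 4.30 and 11.6 RPKM in ESC control (-1.93, standard error 0.39, adjusted p = 0.0178). Col5a2 had 1.55 and 1.67 RPKM in NPC control, against 6.44 and 8.94 RPKM in ESC control (-1.72, standard error 0.16, adjusted p = 0.00181). All ESC control libraries lay above all NPC control libraries in these genes. Col3a1 had 0.324 and 0.317 RPKM in NPC control, against 1.71 and 2.15 RPKM in ESC control (-1.15, standard error 0.17, adjusted p = 0.00684). Col5a1 had 5.54 and 5.42 RPKM in NPC control, against 3.17 and 4.90 RPKM in ESC control, and did not pass (0.39, adjusted p = 0.136). Whether this difference differs from that of its partner Col5a2 was not tested.

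Of the 9 basement membrane genes, Lama5 was higher and Lama1, Nid1 and Lamc1 were lower in NPC control. Col4a1 had 18.3 and 16.3 RPKM in NPC control, against 15.8 and 5.80 RPKM in ESC control (log2 difference 0.78, standard error 0.39, adjusted p = 0.209 in limma). Col4a2 had 9.32 and 7.90 RPKM in NPC control, against 6.65 and 3.83 RPKM in ESC control (0.66, standard error 0.22, adjusted p = 0.0769). Both lay higher in NPC control without overlap, and neither passed. Lama1 had 0.910 and 0.991 RPKM in NPC control, against 10.5 and 4.03 RPKM in ESC control (-1.96, standard error 0.50, adjusted p = 0.0365). Lama5 had 31.5 and 27.2 RPKM in NPC control, against 17.9 and 18.9 RPKM in ESC control (0.64, standard error 0.14, adjusted p = 0.0251). Lama1 had entered the test only through the ESC libraries, where it was high. Nid1 had 2.32 and 1.87 RPKM in NPC control, against 11.8 and 8.13 RPKM in ESC control (-1.81, standard error 0.28, adjusted p = 0.00731). Its relative Nid2, with the overlapping neighbour Rtraf, had 30.6 and 25.5 RPKM in NPC control, against 34.9 and 24.2 RPKM in ESC control (-0.05, adjusted p = 0.889). Lamc1 had 21.5 and 19.5 RPKM in NPC control, against 44.6 and 29.3 RPKM in ESC control (-0.79, standard error 0.20, adjusted p = 0.0348), while Lamb1 had a difference of 0.29 and did not pass.

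Spp1 had 35.9 and 39.2 RPKM in NPC control, against 142 and 184 RPKM in ESC control (log2 difference -2.08, standard error 0.21, adjusted p = 0.00219 in limma). Fn1 had 15.8 and 12.5 RPKM in NPC control, against 29.9 and 47.2 RPKM in ESC control (-1.36, standard error 0.26, adjusted p = 0.0161). ESC control was the higher group in every library for both genes. Lox, the main lysyl oxidase gene, had 1.69 and 1.86 RPKM in NPC control, against 6.62 and 9.92 RPKM in ESC control (-1.72, standard error 0.30, adjusted p = 0.011). Timp1 had 12.2 and 13.8 RPKM in NPC control, against 32.9 and 42.0 RPKM in ESC control (-1.45, standard error 0.15, adjusted p = 0.00249). Timp1 overlaps Syn1, which had at most 0.696 RPKM in any library. Vim had 76.3 and 74.1 RPKM in NPC control, against 127 and 109.9 RPKM in ESC control (-0.64, standard error 0.11, adjusted p = 0.00915). The remaining members did not pass, with differences from -0.96 for Timp2 to 0.65 for Mmp2.

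Feeder and fibroblast markers summed to 5.16 and 4.64 RPKM in NPC control, against 39.2 and 53.7 RPKM in ESC control, and 0 were higher and 4 lower of 7 tested (S100a4, Mgp, Cdh11 and Pdgfra). Without S100a4, which alone had 27.2 and 34.3 RPKM in ESC control, the sums were 3.78 and 3.51 RPKM in NPC control, against 12.02 and 19.4 RPKM in ESC control. All 7 had negative differences, from -3.81 for S100a4 to -0.47 for Thy1. Of the 16 markers listed, Lum, Fap and Dpt were at 0 in all 4 control libraries. Smooth muscle markers summed to 877 and 909.7 RPKM in NPC control, against 166 and 371 RPKM in ESC control, with 4 higher and 1 lower of 6. These counts stand beside 10.1% of all genes higher and 5.94% lower. The part of feeder cells in the members' levels in ESCs was not tested, and culture on feeders and the cell type cannot be told apart here.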

How the data were processed

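The authors deposited RPKM values per RefSeq accession for 10 libraries (5 groups of 2). Per the submitters' processing notes, TopHat2 2.08 and build mm9 were used. Neither the counter and its annotation, nor its treatment of strand and of reads that match at several places, is named in the labels. The table holds 35860 rows, of which 99.07% were given a symbol through RefSeq names of GRCm38.p6 and 334 were not. For a gene with several rows, which holds for 9 members, the row with the highest mean RPKM was used. RPKM values are not counts, so no count test was run. Low values fell on steps, but only 64.1% to 69.9% lay within 0.1 of a whole step, too few to recover reads.

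Genes at 1 RPKM or more in 2 or more libraries were fitted as log2(RPKM + 1) in R 4.3.3 using limma 3.58.1 and its intensity trend, two-sided tests and Benjamini-Hochberg adjustment over all 11956 genes at 0.05. NPC comparisons used the 6 NPC libraries (3 residual degrees of freedom), the others all 10 (5 residual degrees of freedom). The fits were tested on simulated data. There the fit for Cbx3 siRNA in ESCs called far more unchanged genes than its threshold allows, with ESC replicates spread wider than the pooled estimate, whereas in the other comparisons the share of false calls lay near the threshold. The simulated noise was independent between libraries, with a single SD per group for all genes. Real spread differs between genes, and same-numbered libraries share deviations. The simulation therefore cannot give the share of false calls in the data. Members called in a comparison are named, with values per library from a change of 0.4, and at most 3 called genes per further list. Some genes of these lists are not reported by name here. The members, the lists and this rule were chosen with earlier results of these data known. Replicates 1 and 2 were not treated as pairs. Tables and figures were made with Python 3.11.15, pandas 2.3.3 and matplotlib 3.10.9.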

Additional observations from a re-analysis of the deposited data

How the results depend on the processing

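The changes of called members kept their direction under all settings run. Of these values, 255 of 315 under other settings and 207 of 322 with a library left out also kept their side of the threshold. Leaving out each library in turn gave 5 to 10 members after Cbx3 siRNA in NPCs, 2 to 8 after Med26 siRNA, 6 to 7 for Cbx3 against Med26 siRNA, 0 to 0 in ESCs and for the interaction, and 4 to 16 for NPC against ESC control. Over all genes the ranges were 391 to 1063, 164 to 1148, 560 to 1672, 0 to 1 in ESCs, 0 to 0 for the interaction and 185 to 2699. A group left with 1 library was assumed to vary like the others. Without the filter on low values, 9 members passed after Cbx3 siRNA in NPCs and 2 after Med26 siRNA, with 876 and 611 genes in all, 1325 for Cbx3 against Med26 siRNA, 2 in ESCs and 4 for the interaction. With all 10 libraries in the NPC fits, 0 members passed after Cbx3 siRNA, 0 after Med26 siRNA and 2 between the siRNAs, with 1, 15 and 120 genes in all. That fit takes in the wider spread of the ESC libraries. With only the 4 control libraries, 2 members and 47 genes passed for NPC against ESC control. The cause of each difference was not tested. A pseudocount of 0.1, summed rows, rescaling by the median of ratios and a fit without trend kept every count of members within 1.5 times.

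The labels number the replicates alike in each group but do not say that a number marks a shared culture. Deviations of same-numbered libraries correlated at 0.892 between the ESC groups and at 0.423 to 0.461 between NPC groups. With the replicate number as a block, 20 members passed after Cbx3 siRNA in NPCs, 16 after Med26 siRNA, 18 for Cbx3 against Med26 siRNA, 4 after Cbx3 siRNA in ESCs, 26 for NPC against ESC control and 0 for the interaction. Over all genes the block gave 3495, 3705, 4234, 813, 6556 and 6. A fit of the 4 ESC libraries alone with the block, chosen after seeing the data, gave 0 members and 55 genes in ESCs.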

Other observations

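Companion genes of the matrix differed between NPC control and ESC control in both directions. Col2a1, the main cartilage collagen gene, which is also made in early neuroepithelium, had 10.7 and 8.92 RPKM in NPC control, against 0.570 and 1.96 RPKM in ESC control (log2 difference 2.32, adjusted p = 0.00572 in limma). The contractile genes Cnn1 (3.04), Tagln (2.30) and Myl9 (2.03) were higher in NPC control. Fbln2, which encodes a fibulin of elastic fibres, had 2.75 and 2.95 RPKM in NPC control, against 19.6 and 17.3 RPKM in ESC control (-2.34, adjusted p = 0.000112). The proteoglycan gene Bgn (-2.36) and the procollagen processing enhancer gene Pcolce (-1.72) were lower in NPC control. By list, the counts higher and lower were 5 and 2 of 14 actin and filament partners, 1 and 1 of 15 collagen-modifying enzymes, 2 and 2 of 11 elastic fibre genes, 2 and 1 of 17 integrin receptors and adhesion partners, 3 and 0 of 9 matricellular genes, 2 and 0 of 14 proteases and inhibitors, 1 and 2 of 4 other collagens, 2 and 2 of 11 other basement membrane genes and 2 and 1 of 10 proteoglycans. For comparison, 10.1% of all genes tested were higher and 5.94% lower in NPC control, and several of these small lists lay near those shares. After Cbx3 siRNA in ESCs 0 genes of these lists passed.

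Depth is known only as an estimate. Col3a1, Col6a1, Lama1 and Thbs2 lay under 1 RPKM in every NPC library, and how many reads these low values rest on is not known. With 2 libraries per group, an interval for a single gene is wide, and values that did not pass do not show that groups were alike. Members' RNA was measured in bulk, so the cells that made it are not known.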
